A study of Mus musculus with 10 samples.

Results

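The replication-dependent histone genes were examined in total RNA of the embryonic mouse dorsal telencephalon. Members were chosen by symbol alone: every symbol beginning Hist1h, Hist2h, Hist3h or Hist4h, without the 1 symbol marked as a pseudogene by the suffix -ps. This gave 69 of the 38803 symbols measured, of which 6 belong to class H1, 20 to H2A, 18 to H2B, 12 to H3 and 13 to H4. The 10 libraries, 5 control and 5 mutant, were made from dorsal telencephalon at embryonic day 12, on a mixed C57/Bl6 and 129 SvJ background. Controls were Rnu11WT/Flx::Emx1-cre+/- and mutants were Rnu11Flx/Flx::Emx1-Cre+/-. Rnu11 encodes the U11 small nuclear RNA, which recognises the 5′ splice site of minor introns, and Emx1 drives Cre in the progenitors of the dorsal telencephalon. Both groups carried Cre and at least 1 floxed copy, so there was no library with 2 intact copies to compare with. The labels do not say whether replicates were separate embryos, litters or pools, so p-values measure only the spread between these libraries.

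Replication-dependent histone genes supply the core histones H2A, H2B, H3 and H4 and the linker histone H1 that package newly copied DNA. Their transcripts are made in bulk during S phase. They mostly have no introns and end in a stem-loop instead of a poly(A) tail. Stem-loop binding protein holds that hairpin, the U7 small nuclear ribonucleoprotein positions the cut behind it, and the hairpin also directs decay of the transcript when DNA synthesis stops. Libraries made from total RNA after removal of ribosomal RNA, as here, retain transcripts without poly(A) tails.

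The shared 3′ end can be read in the transcripts themselves. The hairpin searched for had a 6-base stem beginning GG, paired without a mismatch, and a 4-base loop beginning TT. It was found in the annotated transcript of 44 of the 69 members (GENCODE M21, GRCm38). There it lay in the 3′ untranslated part, 21 to 58 bases after the stop codon, with a median of 31. Of the 25 members without one, 15 had annotated transcripts that stop under 30 bases after the stop codon and 2 had no coding annotation. The other 8 reached further in their longest transcript, but Hist2h3b and Hist1h1a by only 37 and 48 bases, where a hairpin could be cut off. Transcripts of Hist1h2bq and Hist1h2br ran from 381 bases to 2015 and 2197. A hairpin with a mismatch in its stem would be missed, so no match does not show that a gene lacks a stem-loop. An example is shown from each class of core histone, 5′ to 3′, with a pair of H4 genes, Hist1h4i and Hist2h4, that share a hairpin. Their differences in the first set (defined below) had opposite signs, though mutants and controls overlapped in Hist1h4i. Capitals mark the stem and loop.
Hist1h2ac (H2A), chr13:23683472-23683497, minus strand: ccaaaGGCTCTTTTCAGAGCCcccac
Hist1h2bb (H2B), chr13:23747198-23747223, plus strand: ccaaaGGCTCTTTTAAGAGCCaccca
Hist1h3c (H3), chr13:23745042-23745067, minus strand: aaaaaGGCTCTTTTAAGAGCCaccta
Hist1h4c (H4), chr13:23698084-23698109, minus strand: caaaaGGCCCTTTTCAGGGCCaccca
Hist1h4i (H4), chr13:22040961-22040986, minus strand: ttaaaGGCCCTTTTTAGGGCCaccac
Hist2h4 (H4), chr3:96262934-96262959, minus strand: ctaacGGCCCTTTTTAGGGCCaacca
The form in Hist1h2ac was the commonest and stood in 26 members of classes H1, H2A, H2B and H3. That of Hist1h4c stood in 7 members, all H4, and that of Hist1h2bb and Hist1h3c in 6. Hist1h4i and Hist2h4 were the only 2 members with theirs.

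Promoters separated the classes as well. The 250 bases before the start were available for 62 of the 69 members (RefSeq, GRCm38.p6) and were searched on both strands for the TATA core TATAAA, the CCAAT box, the octamer ATTTGCAT bound by POU factors, and GGTCC, which H4 promoters carry within the site of the histone transcription factor HINFP. GGTCC on the other strand (GGACC) can overlap CCAAT by 2 letters. TATAAA stood in 46.8% of the members' windows and in 12.4% of all 32851 windows of that length, and CCAAT in 82.3% against 33.8%. CCAAT was present in all 6 H1, all 18 H2A and all 16 H2B windows, in 8 of 10 H3 windows and in 3 of 12 H4 windows. The octamer was in 7 of 18 H2A and 6 of 16 H2B windows and in no window of the other classes, against 1.6% of all windows. Many neighbouring H2A and H2B genes on opposite strands share part of their windows, so a single site could be counted in both classes. GGTCC was in 11 of 12 H4 windows and in 38.7% of all members' windows, close to the 39.8% of all windows. A match describes letters in the window and does not show that a factor binds.

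The windows of 3 members are printed, 5′ to 3′ on the strand of the gene, with matches to these motifs in capitals. Hist1h4c was the most abundant H4 gene, Hist1h4i the 1 tested H4 gene with a positive difference in the first set, and the Hist1h2ac window spans from Hist1h2ac to the annotated start of the divergent gene Hist1h2bc.
Hist1h4c, chr13:23698459-23698708, minus strand: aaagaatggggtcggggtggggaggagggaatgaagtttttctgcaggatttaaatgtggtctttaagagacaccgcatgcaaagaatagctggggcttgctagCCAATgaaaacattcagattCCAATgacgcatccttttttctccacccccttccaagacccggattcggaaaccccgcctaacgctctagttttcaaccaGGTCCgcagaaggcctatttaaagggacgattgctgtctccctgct
Hist1h4i, chr13:22041363-22041612, minus strand: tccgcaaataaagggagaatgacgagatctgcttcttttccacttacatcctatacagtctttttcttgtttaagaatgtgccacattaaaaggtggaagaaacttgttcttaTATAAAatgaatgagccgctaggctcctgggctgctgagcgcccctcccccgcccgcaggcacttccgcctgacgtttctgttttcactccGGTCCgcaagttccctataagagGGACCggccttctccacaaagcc
Hist1h2ac, chr13:23683960-23684209, minus strand: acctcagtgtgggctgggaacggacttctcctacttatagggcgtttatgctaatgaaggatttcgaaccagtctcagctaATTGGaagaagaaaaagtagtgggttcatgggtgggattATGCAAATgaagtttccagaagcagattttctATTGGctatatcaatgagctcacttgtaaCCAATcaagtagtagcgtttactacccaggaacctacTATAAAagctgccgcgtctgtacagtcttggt
Both H4 windows carried GGTCC with its first base 46 bases before the start. The Hist1h2ac window held an octamer on the other strand, 130 bases before the start, with 3 CCAAT matches around it.

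In the genome 56 members have Hist1 symbols and lie on chromosome 13, 10 in Hist2 on chromosome 3 (chr3:96219865-96270132), 2 in Hist3 on chromosome 11 and 1, Hist4h4, on chromosome 6. Of those named Hist1, Hist1h2al (chr13:51202727-51203065) lies far from the others. GENCODE M21 annotates Hist1h2aj and Hist1h2al as pseudogenes, and they were kept by the rule. Several members are near copies of each other: in 20 of 69, 75% or more of the 50-base stretches of the transcript also occur in another gene, and in 4 none do. Values of such genes depend on how the authors' program divided shared reads and are uncertain gene by gene. All 20 H2A genes, and 23 members in all, are overlapped on the opposite strand by another annotated gene. No source used here says whether the counting was by strand.

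Histone genes were among the most abundant genes in these libraries. Levels are in FPKM, the fragments of a gene per kilobase of its length, in proportion to the library's total, so that genes of different length can be compared. The mean over 10 libraries was 1000 FPKM or more for 19 members and 100 or more for 58, and under 10 for 5. Of 20387 protein-coding genes ranked by mean FPKM, 40 of the top 100 and 8 of the top 20 were members. Hist1h4c ranked 3, Hist1h4n 6, Hist1h4k 7, Hist1h4f 9 and Hist1h4a 10, all of them encoding H4, the core histone that pairs with H3. H4 genes made up 37.4% of the summed histone FPKM, H2A 22.6%, H2B 18.3%, H3 14.0% and the linker histone H1 7.62%. In the H2A class a single gene, Hist1h2aj, held 32.8% of the sum with a mean of 4334 FPKM. Annotated transcripts ran from 312 to 7425 bases, and 38 members had under 600, so part of the spread in FPKM rests on the length each gene was given.

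**Figure D1:**
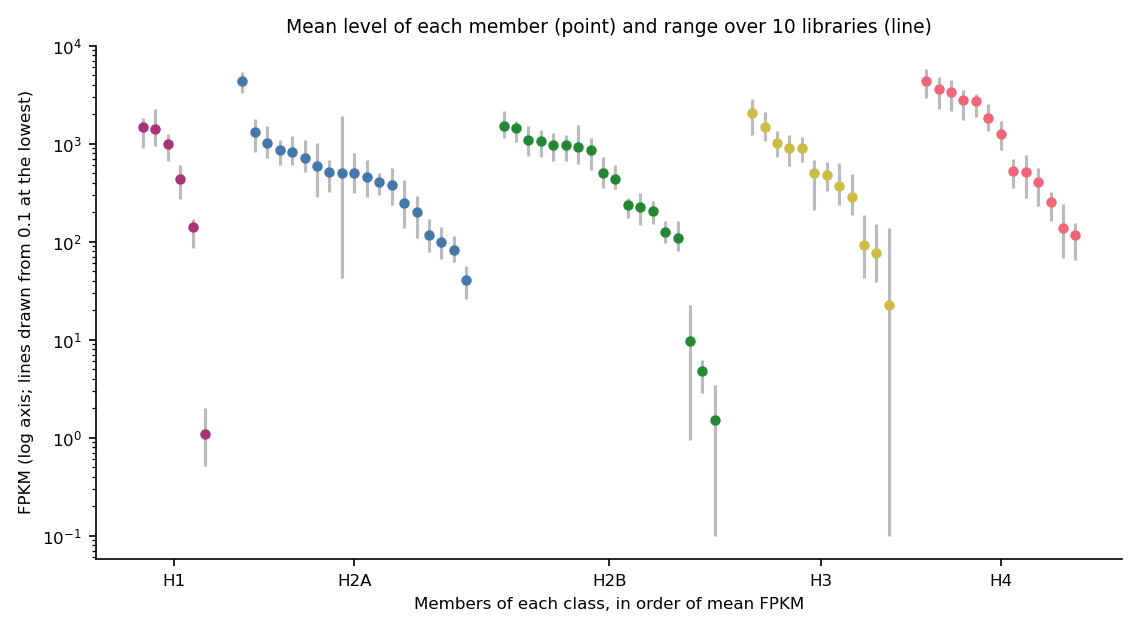
Mean FPKM of each member over the 10 libraries (point, log axis) with its lowest and highest library (line), in order of the mean within each histone class; Hist1h2aa, at 0 in all libraries, is not drawn. Members of every class but H4 ranged from over 1000 FPKM to under 100, while no H4 gene had a mean under 100.

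The 3 testis members sat at the bottom of this range. Hist1h2aa, a testis H2A, was at 0 in all 10 libraries. Hist1h1t, the testis linker histone, was at 2.03, 0.84, 1.07, 1.51 and 0.51 FPKM in controls 1 to 5 and at 0.86, 1.33, 0.86, 0.72 and 1.12 in mutants 1 to 5. Hist1h2ba, the testis H2B, was at 0.64 to 2.63 FPKM in controls and 0 to 3.43 in mutants. In a 500-base transcript 1 fragment was worth an estimated 0.0972 to 0.208 FPKM, so these values rest on few fragments and the groups overlapped in both genes.

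Rnu11 itself was measured first, as a check of the labels. It was at 2386, 2031, 2817, 1913 and 2266 FPKM in controls 1 to 5 and at 712, 473, 511, 1344 and 1421 in mutants 1 to 5. All mutants lay below all controls, at 39.1% of the control mean (exact two-sided permutation test over the 252 splits of 5 against 5, p = 0.00794, the smallest it allows). In limma over all genes its difference was -1.50 ± 0.31 (log2, SE), with an adjusted p of 0.118 over 10 libraries, 0.00853 when library set was a term and 0.00185 in the first set alone, as these sets are defined next. Mutants 4 and 5 retained more than mutants 1 to 3. The same libraries differed in another way. Rnu12, the U12 partner of U11 in the minor spliceosome, was at 487 to 688 FPKM in control 5 and mutants 4 and 5 and at 5.91 to 33.8 in the other 7, a difference that cuts across genotype. The labels name no batch. Control 5 and mutants 4 and 5 are called the second set below, and controls 1 to 4 with mutants 1 to 3 the first set.

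Over all 10 libraries, no histone gene passed the test between mutants and controls, and the 2 sets of libraries gave opposite orders. Summed over all classes, the histone genes were at 67887, 59984, 62751 and 63504 FPKM in controls 1 to 4 and at 40105, 50664 and 44499 in mutants 1 to 3. The mutants of this first set were at 71.0% of the control mean, and the groups did not overlap. In the second set, control 5 was at 58483 FPKM and mutants 4 and 5 were at 67121 and 69277, which is 116.6% of that single control. Pooled, controls were at 62522 ± 3625 (SD, n = 5) and mutants at 54333 ± 13224, and the groups overlapped. The share of the protein-coding FPKM held by coding histone genes was lowest in mutants 1, 2 and 3, at 11.5%, 13.9% and 12.3%, against 14.8 to 19.1% in the other libraries. Library set and the size of the Rnu11 difference go together here, and with 1 control in the second set their parts cannot be told apart. In bulk RNA, fewer cells that transcribe histone genes and less histone RNA per cell cannot be told apart either.

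**Figure D2:**
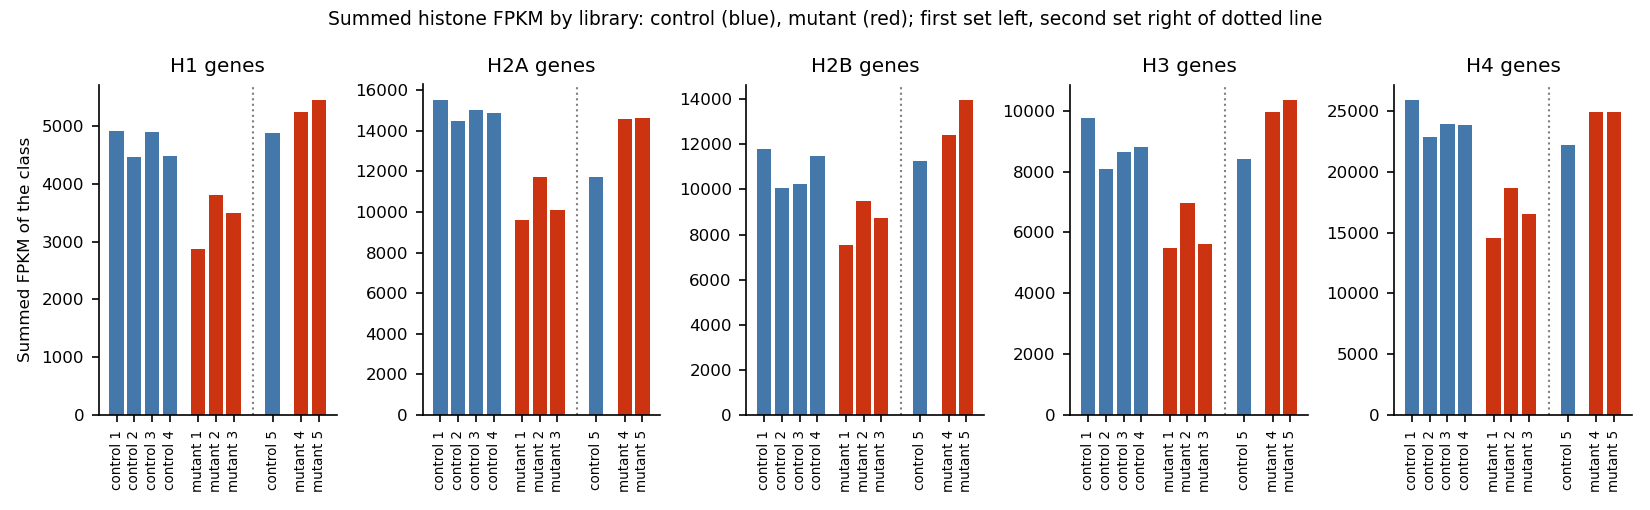
Summed FPKM of the members of each histone class in each library, controls in blue and mutants in red, with the first set left and the second set right of the dotted line; each bar is 1 library. In all 5 classes mutants 1 to 3 stand below controls 1 to 4, and mutants 4 and 5 stand above control 5.

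Of the 69 members, 67 reached 1 FPKM in at least 5 libraries and were tested among 13522 genes. None of the 67 passed the limma test of mutants against controls (Benjamini-Hochberg adjusted p under 0.05), beside 0.0887% of all genes higher and 0.0666% lower. The lowest adjusted p of a member was 0.248, for Hist2h2be, on limma. At an unadjusted p under 0.05 there were 8 members lower and 2 higher, beside 1.07% and 7.69% of all genes. That total of 10 was between 3 and 19 when single libraries were left out: it was 3 without control 1, mutant 1 or mutant 3, 5 without control 3, and 19, 15 and 17 without control 5, mutant 4 and mutant 5. The median difference of the members, mutant minus control on the log2(FPKM + 1) scale, was -0.16, with 50 of 67 below 0, against 0.11 for all tested genes. It was -0.08 without mutant 1 (41 of 67 below 0) and -0.11 without mutant 3 (43), and -0.25 and -0.27 without mutants 4 and 5 (59 and 60). Quantile normalization moved the median of all genes to -0.0051 and that of the members to -0.25. The log2(FPKM + 1) scale understates the change of low genes.

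Taken within the first set, the members lay on the low side as a group. Mutants 1 to 3 lay below controls 1 to 4 without overlap in 36 of 67 tested members, beside 1.44% of all genes, and above them in 1, beside 16.7%. The count was 36 to 49 when any 1 library of the set was left out, beside 1.71% to 3.20% of all genes. Leaving out a library cannot lower such a count, so this range does not test its stability. After scaling by the median ratio between libraries 46 members were lower, beside 6.69% of all genes, and 1 was higher, beside 7.85%. The members' median difference was -0.42 against 0.16 for all genes, and 63 of 67 were below 0. Even so, limma on these 7 libraries called 0 members lower, beside 0.141% of all genes, and 0 higher, beside 0.606%. There 43 members had an unadjusted p under 0.05, 42 of them lower, beside 18.9% of all genes in either direction. The lowest adjusted p was 0.0568, for Hist1h2ac and Hist1h2ae. With median-ratio scaling 3 members passed as lower, beside 0.288% of all genes: Hist1h2ac at -0.91 ± 0.14 (SE, limma adjusted p = 0.0371), Hist1h2ae at -0.75 ± 0.12 (adjusted p = 0.0377) and Hist2h4 at -0.77 ± 0.13 (adjusted p = 0.0497).

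In the second set the order was turned. Both mutants lay above control 5 in 55 of 67 members, beside 22.7% of all genes, and below it in 4, beside 49.9%. The members' median difference was 0.22, against -0.08 for all tested genes. Without overlap in either set, 29 members were lower in the first and higher in the second. Over all tested genes 36 had that pattern, 0.266%. The interaction of genotype with library set, fitted with limma, called 0 of 13522 genes (0.00%). Its unadjusted p was under 0.05 in 33 of 67 members and in 9.07% of all genes, with a member median of 0.60, and the lowest adjusted p of a member was 0.535. With median-ratio scaling these were 53 members, 4.86% of all genes and a median of 0.84, and again 0 genes passed. So the difference between the sets, which rests on the single control of the second, was not resolved for any single gene. When limma was fitted with a term for the library set, 0 members passed, beside 0.325% of genes higher and 0.222% lower, and the members' median was -0.24 against 0.09.

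**Figure D3:**
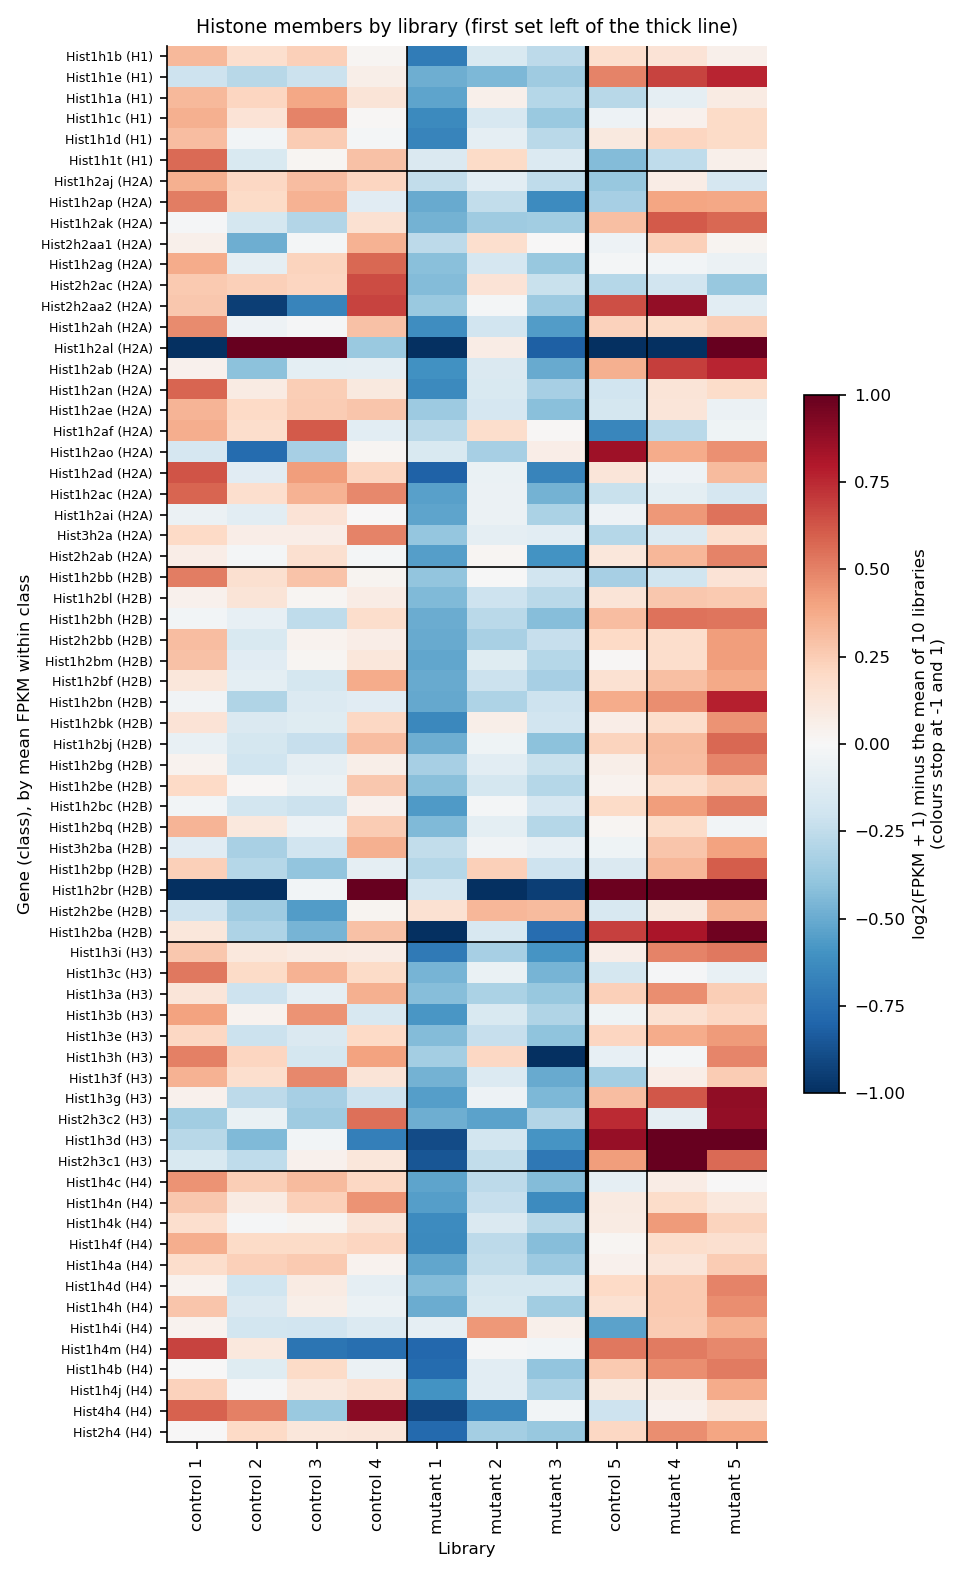
Each tested member in each library as log2(FPKM + 1) minus its mean over the 10 libraries (colour, red above and blue below the mean, stopped at -1 and 1), ordered by mean FPKM within class, with the first set left of the thick line. The columns of mutants 1 to 3 are blue in most rows and those of mutants 4 and 5 red in most. Hist2h2be goes against the first of these in all 3 libraries, and Hist1h4i in all but mutant 1.

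**Figure D4:**
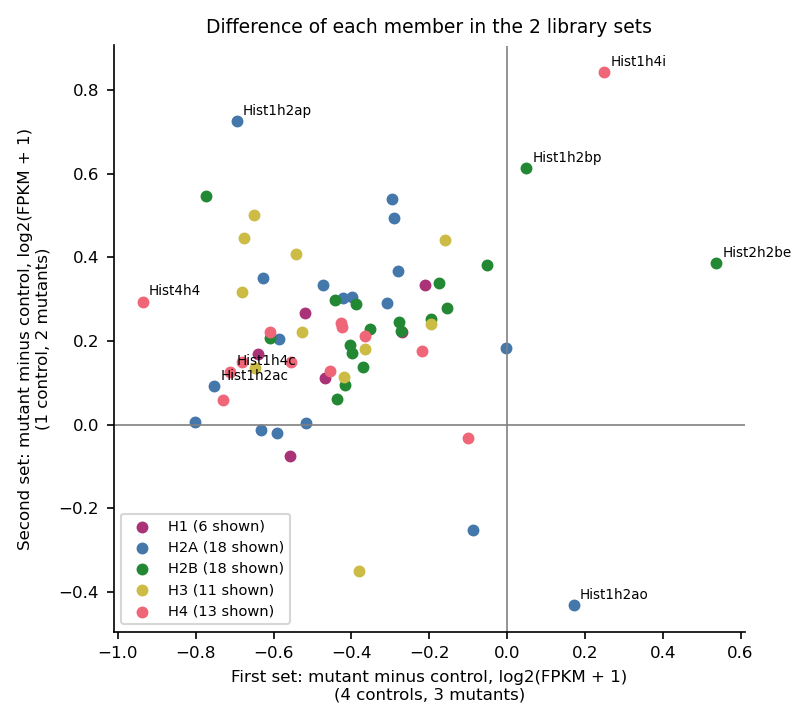
Difference between mutants and controls of each member on the log2(FPKM + 1) scale within the first set (horizontal, 4 controls and 3 mutants) and the second (vertical, 1 control and 2 mutants), coloured by class; 66 members are shown and Hist1h2al, at -2.02 and 2.59, lies outside. Most points sit in the upper left, lower in the first set and higher in the second.

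Among the linker histones, which bind DNA between nucleosomes, the summed H1 level was at 4909, 4461, 4897 and 4491 FPKM in controls 1 to 4 and at 2880, 3803 and 3495 in mutants 1 to 3, 72.3% of the control mean. Control 5 was at 4882 and mutants 4 and 5 at 5242 and 5450. Of the 6 genes, 5 were lower without overlap in the first set, beside 1.44% of all genes, and Hist1h1t was the exception. Hist1h1b, the most abundant, was at 1818, 1629, 1714, 1470 and 1630 FPKM in controls 1 to 5 and at 894.5, 1307, 1211, 1594 and 1504 in mutants 1 to 5. It was the 1 linker gene that was below control 5 in both mutants of the second set. Its pooled difference was -0.37 ± 0.17 (log2, SE, limma adjusted p = 0.573).
Hist1h1c was at 552, 473, 606, 433 and 415 FPKM in controls and 276, 385, 333, 442 and 491 in mutants, and its first-set mutants were all below its controls (-0.64 ± 0.16, limma adjusted p = 0.111 in that set). Hist1h1a was at 1210, 1118, 1261, 1053 and 798 FPKM in controls and 667, 1001, 790, 905 and 1020 in mutants. Control 5 was thus the lowest control for both of these genes. Hist1h1e was at 1158, 1104, 1152, 1399 and 1891 in controls and 954, 980, 1047, 2139 and 2277 in mutants, with all 3 libraries of the second set above the other 7. Its pooled difference of 0.06 took the opposite sign with median-ratio scaling (-0.05) and in the first set alone (-0.27).

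H2A, which pairs with H2B in the nucleosome, summed to 15504, 14484, 15005 and 14882 FPKM in controls 1 to 4 and to 9604, 11737 and 10111 in mutants 1 to 3, 70.0% of the control mean. Control 5, at 11704, stood apart from the other controls, and mutants 4 and 5 were at 14573 and 14610. Within the first set 10 of 19 tested genes were lower without overlap, beside 1.44% of all genes. Hist1h2aj was at 5450, 4931, 5289, 4959 and 3278 FPKM in controls 1 to 5 and at 3599, 3970, 3572, 4494 and 3793 in mutants 1 to 5. Control 5 was below all other libraries in this gene, which GENCODE holds to be a pseudogene.
Hist1h2ac, which shared the lowest adjusted p of the first set with Hist1h2ae, was at 172, 128, 146, 160 and 97.9 FPKM in controls and 78.1, 110, 82.0, 107 and 102 in mutants. The pooled groups met at control 5, which was below mutants 2, 4 and 5, and the pooled difference was -0.54 ± 0.16 (limma adjusted p = 0.357). Hist1h2ag was at 1046, 758, 943, 1200 and 794 FPKM in controls and 603, 718, 622, 791 and 776 in mutants, with a pooled difference of -0.42 ± 0.16 (limma adjusted p = 0.487). Hist1h2ap showed the widest gap between the sets of these genes: it was at 1806, 1447, 1609, 1170 and 1004 FPKM in controls and 894, 1068, 817, 1669 and 1654 in mutants. That is 61.4% of the controls in the first set against 165.4% in the second, with an interaction of 1.42 on the log2 scale (limma adjusted p = 0.535). Hist1h2ak, at 981, 877, 806, 1100 and 1220 FPKM in controls and 713, 774, 777, 1513 and 1472 in mutants, had a pooled difference of 0.01 that was negative with either scaling, at -0.10 and -0.09.
The other H2A members ran from 57.7% to 98.5% of control in the first set, except Hist1h2ao and Hist1h2al. Hist1h2ao was at 111.2%. Hist1h2al, an annotated processed pseudogene, ranged from 42.9 to 1902 FPKM with no order by genotype or set.

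Class H2B, the partner of H2A, was the nearest to its controls in the first set. Its sum was 11809, 10067, 10238 and 11462 FPKM in controls 1 to 4 and 7532, 9470 and 8716 in mutants 1 to 3, 78.7% of the control mean. Control 5 was at 11252 and mutants 4 and 5 were at 12404 and 13952. In the first set 8 of 18 genes were lower without overlap and 1 higher, beside 1.44% and 16.7% of all genes. Hist1h2bb was at 2131, 1665, 1820, 1525 and 1187 FPKM in controls 1 to 5 and at 1138, 1488, 1307, 1298 and 1641 in mutants 1 to 5. Hist1h2bl was at 1469, 1564, 1446, 1506 and 1561 in controls and 1050, 1242, 1186, 1720 and 1715 in mutants. Neither gene differed beyond the spread when pooled, with limma adjusted p of 0.684 and 0.801. Hist1h2bh was at 100.9% of control pooled and at 78.0% in the first set. Hist1h2bq was at 83.5% and 73.7%.
Hist2h2be encodes H2BE, an H2B variant studied in olfactory neurons, and was the 1 member of 67 whose mutants lay above all controls in the 10 libraries, beside 1.52% of all genes. A count of 1 in 67 is near that share and does not set the members apart from other genes. No member lay below without overlap, beside 0.377%. Hist2h2be was at 3.88, 3.41, 2.83, 4.73 and 4.05 FPKM in controls and 5.24, 6.09, 5.99, 5.04 and 6.21 in mutants. Means were 3.78 ± 0.71 and 5.71 ± 0.53 (SD, n = 5 in each), a difference of 0.50 ± 0.12 on the log2 scale (limma adjusted p = 0.248). It was higher in both sets, at 155.6% and 138.9% of control. Hist2h2be was also among the 8 members whose annotated transcript reached 30 bases past the stop codon without the hairpin, and none of its 50-base stretches occurs in another gene.

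H3 genes encode the core histone whose tail carries many of the best known chromatin marks. They summed to 9757, 8090, 8628 and 8808 FPKM in controls 1 to 4 and to 5490, 6955 and 5635 in mutants 1 to 3, 68.3% of the control mean, the lowest share of the 5 classes. Control 5 was at 8417 and mutants 4 and 5 at 9959 and 10343. All 11 tested H3 genes had a negative difference in the first set, 5 of them without overlap, beside 1.44% of all genes. Hist1h3i was at 2419, 2153, 2124, 2109 and 2096 FPKM in controls 1 to 5 and at 1227, 1593, 1327, 2828 and 2882 in mutants 1 to 5. Controls were close together in this gene, and mutants lay on either side of them by set (-0.68 ± 0.15 in the first, limma adjusted p = 0.0751, and 0.45 in the second).
Hist1h3c was at 2101, 1670, 1855, 1670 and 1289 in controls and 1059, 1394, 1056, 1450 and 1385 in mutants, with a pooled difference of -0.43 ± 0.17 (limma adjusted p = 0.51). Hist1h3f was at 598, 527, 656, 515 and 371 FPKM in controls and 339, 428, 331, 492 and 561 in mutants. Control 5 was again the lowest control in both. Hist1h3a was at 74.0% of control in the first set against 108.5% in the second. Hist2h3b, not tested, was at 0 to 0.54 FPKM in the first set and at 39.5, 139 and 44.8 in control 5, mutant 4 and mutant 5, a contrast between sets and not between genotypes.

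H4 was the most abundant class and summed to 25908, 22883, 23984 and 23861 FPKM in controls 1 to 4 and to 14600, 18699 and 16543 in mutants 1 to 3, 68.8% of the control mean. Control 5 was at 22230 and mutants 4 and 5 at 24943 and 24921. Within the first set 8 of 13 genes were lower without overlap, beside 1.44% of all genes. Hist1h4c, a gene of 1 exon at chr13:23697635-23698454, was at 5805, 5039, 5285, 4902 and 3998 FPKM in controls 1 to 5 and at 2952, 3538, 3145, 4475 and 4257 in mutants 1 to 5. All mutants were below controls 1 to 4 and only control 5 was within their range. The pooled means were 5006 ± 660 and 3674 ± 671 (SD, n = 5 in each), a difference of -0.45 ± 0.18 on the log2 scale (limma adjusted p = 0.51).
Hist1h4n was at 4201, 3702, 4118, 4765 and 3717 FPKM in controls and 2383, 2971, 2256, 3973 and 3768 in mutants, 60.5% of control in the first set. Hist1h4k was at 3713, 3286, 3377, 3617 and 3514 in controls and 2144, 2999, 2736, 4458 and 3874 in mutants, and its mutants lay below all controls in the first set and above all of them in the second. Hist4h4 was at 51.2% of control in the first set, the lowest of the class.
Hist1h4i was the exception in sign in the first set, at 0.25 ± 0.15 (log2, SE), or 0.09 ± 0.16 with median-ratio scaling. It was at 527, 451, 450, 467 and 353 FPKM in controls and 482, 692, 533, 611 and 658 in mutants, and only mutant 1 was below a control. Its mutants were at 120.2% of control in the first set against 179.8% in the second, a pooled difference of 0.40 ± 0.15 (limma adjusted p = 0.463). Hist2h4, which carries the same hairpin as Hist1h4i, was at 65.8% in the first set.

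Features that the choice of members did not use are given as descriptions. The 7 H4 genes with the hairpin of Hist1h4c had a median first-set difference of -0.68, the 26 members with the commonest form -0.39, and the 23 tested members without a hairpin in the annotation -0.44. Members of the Hist1 cluster had a median of -0.43 in the first set against 0.22 in the second, and those of Hist2 -0.42 and 0.18. Genes with 75% or more of their stretches shared with another gene had a median first-set difference of -0.47, and those with under 25% shared -0.46. These groups are small, overlap in class and were not tested.
There were 13 divergent pairs of an H2A and an H2B gene, with 175 to 305 bases between their starts. In 9 of the 12 pairs with both genes tested, both were below 0 in the first set, with Hist1h2ac at -0.75 and its partner Hist1h2bc at -0.15 across the window printed above. The pair of Hist2h2ac and Hist2h2be was split, at -0.52 and 0.54.

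The other genes of the histone pathway were read from lists of known members. There were 11 listed histone genes outside the clusters, which in the main are transcribed all through the cell cycle and have poly(A) tails. Of these, 0 passed in limma over 10 libraries, beside 0.0887% of all genes higher and 0.0666% lower. Their median difference in the first set was 0.02, against 0.16 for all tested genes. H3f3a and H3f3b, which both encode the replacement histone H3.3, were at 595 ± 68.2 and 306 ± 49.1 FPKM in controls and 587 ± 40.2 and 311 ± 32.0 in mutants (SD, n = 5). H2afz, a histone variant found at promoters, was at 140 ± 36.0 and 112 ± 36.9 FPKM. H1f0, a linker histone of resting cells, was at 66.6 ± 15.6 and 72.6 ± 13.7. Both groups overlapped in all 4. H2afj, an H2A variant, was at 4.23, 4.51, 5.16, 5.49 and 5.89 FPKM in controls and 8.54, 10.4, 8.80, 7.14 and 7.75 in mutants, without overlap. Its difference was 0.65 ± 0.12 (limma adjusted p = 0.0805). It passed as higher in limma when library set was a term (0.67 ± 0.12, adjusted p = 0.0365), beside 0.325% of all genes.

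Among factors of histone gene transcription and 3′ processing, 20 of 21 were tested, and 0 passed in limma in either direction, with a median of 0.15. Over all tested genes 0.0887% passed as higher and 0.0666% as lower, with a median of 0.11. Slbp, the stem-loop binding protein, was at 77.3, 66.4, 57.8, 91.8 and 110 FPKM in controls and 65.8, 70.7, 62.9, 88.7 and 77.4 in mutants, with full overlap. Npat, which activates histone transcription in S phase, was at 4.47 to 11.1 FPKM in controls and 5.85 to 8.96 in mutants. Hinfp, which binds H4 promoters, was at 8.10 ± 1.63 and 10.2 ± 2.01, and Snrpd3, a Sm protein shared by the U7 and spliceosomal particles, at 30.4 ± 13.9 and 46.4 ± 11.5 (SD, n = 5). Rnu7, the RNA of the U7 particle, was listed at 0 in all 10 libraries. Absence of this RNA and a failure to capture or count it cannot be told apart here. Of 14 factors of histone mRNA decay, 0 passed over 10 libraries. Once library set was a term 2 passed as lower, beside 0.222% of all genes. These were Lsm5, of the ring that binds the tail of transcripts marked for decay, and Dcp2, the decapping enzyme. Lsm5 was at 62.2 ± 17.3 FPKM in controls and 39.2 ± 8.83 in mutants (-0.76 ± 0.12, limma adjusted p = 0.0115), and Dcp2 was at 9.34 ± 2.52 and 5.94 ± 0.70 (-0.63 ± 0.12, adjusted p = 0.0391). Of 15 histone chaperones 0 passed, with a median of 0.08. Rbbp7, a histone-binding subunit of several chromatin complexes, was at 31.3 ± 8.16 and 35.8 ± 5.15 FPKM, and Ssrp1, of the FACT complex, at 62.0 ± 18.3 and 72.5 ± 18.7.

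Genes of DNA replication, whose transcripts have poly(A) tails and are also at their highest around S phase, had a median near 0. Of 36 tested, 0 passed in limma, beside 0.0887% of all genes higher and 0.0666% lower. Their median was 0.01 over 10 libraries and -0.02 in the first set, where 21 of 36 were below 0. The medians of all tested genes were higher, at 0.11 and 0.16. The mean log2(FPKM + 1) of the replication genes was 4.67 to 5.06 in controls 1 to 4 and 4.70 to 4.93 in mutants 1 to 3, with overlap. Rfc5, a subunit of the clamp loader, was at 23.0, 30.2, 30.6, 37.0 and 28.7 FPKM in controls and 16.3, 23.1, 18.8, 25.4 and 18.6 in mutants (-0.53 ± 0.15, limma adjusted p = 0.31). Tk1, thymidine kinase, was at 40.6 ± 4.44 and 32.5 ± 3.43 (-0.31 ± 0.11, adjusted p = 0.436). Of 27 genes of G2 and mitosis 0 passed, with a median of 0.11. Plk1, a mitotic kinase, was at 9.75 ± 1.92 and 12.2 ± 1.07 FPKM, and Ube2c, which serves the anaphase complex, at 39.5 ± 17.8 and 52.6 ± 12.6. The S phase list was highest of all in control 5, at 5.22, against 4.97 to 5.15 in mutants 4 and 5. In the second set the median difference was -0.17 for the replication genes and -0.08 for all tested genes.

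**Figure D5:**
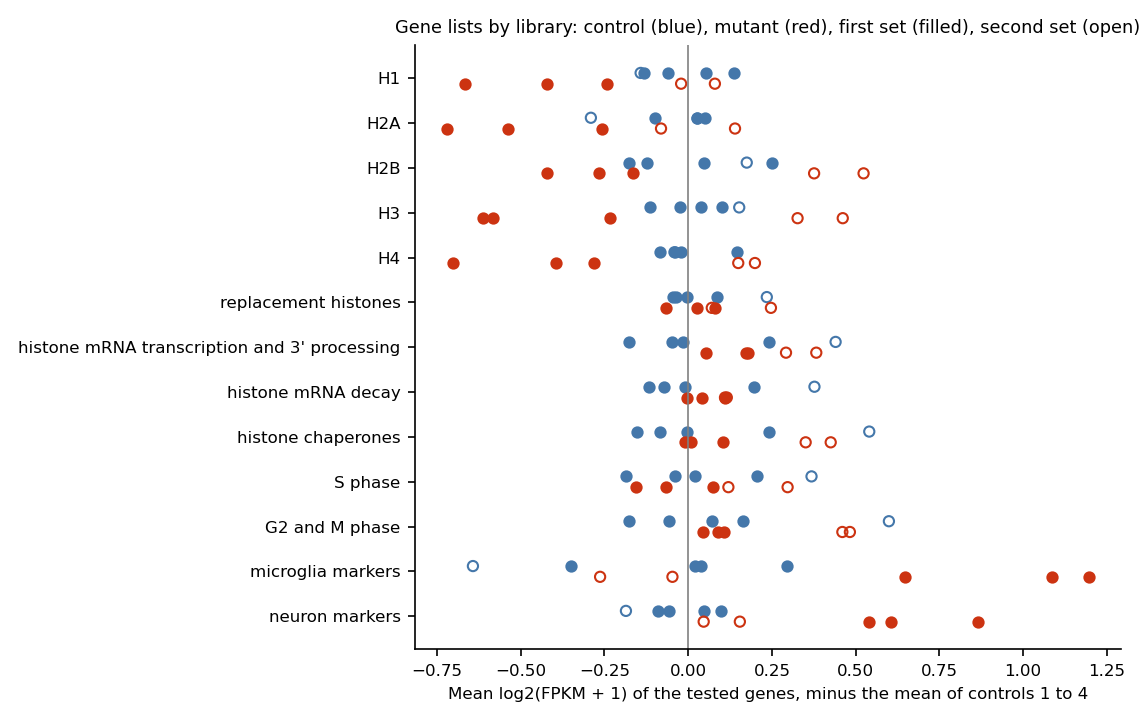
Mean log2(FPKM + 1) of the tested genes of each histone class and gene list in each library, minus the mean of controls 1 to 4; controls are blue and mutants red, the first set filled and the second set open. In the first set the mutants of H1, H2A, H3 and H4 lie below all controls, while the genotypes overlap in H2B and in the 6 other pathway lists.

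Markers of other cell types were summed in each library. All 9 dorsal telencephalon markers were detected, with a summed level of 148 to 181 FPKM in controls 1 to 4, 185 to 211 in mutants 1 to 3, 232 in control 5 and 214 to 219 in mutants 4 and 5. In the first set they thus lay higher in the mutants, without overlap. In that set 16.7% of all tested genes did so too, and the median difference was 0.16 for all tested genes and 0.30 for these markers. These sums were not scaled by the median ratio between libraries. Summed neuron markers, 10 of 10 tested, were at 312 to 465 FPKM in controls 1 to 4 and 476 to 588 in mutants 1 to 3, and at 330 in control 5 and 383 to 408 in mutants 4 and 5. Summed microglia markers, 7 of 8 tested, were at 21.4 to 43.1 FPKM in controls 1 to 4, at 60.3 or more in mutants 1 to 3, 17.0 in control 5 and 26.4 to 31.2 in mutants 4 and 5. Summed ventral telencephalon markers, 2 of 10 tested, were at 73.7 FPKM in control 4 and had a low of 6.99 in the controls, and in mutants were at 9.36 to 27.2. Endothelial markers were at 28.5 to 45.3 FPKM in controls and 35.1 to 57.9 in mutants. Blood cell markers overlapped between groups, at 3911 to 9711 FPKM in controls and 5403 to 10170 in mutants. Mesenchyme and meninges markers were at 73.6 to 166 FPKM in controls 1 to 4 and 148 to 200 in mutants 1 to 3, with overlap. The neuron and microglia sums were thus higher in the mutants of both sets. Both mutants lay above control 5 in 22.7% of all tested genes too. Median differences of the tested markers, first set before second set, were 0.56 and 0.35 for neurons and 0.95 and 0.32 for microglia. These marker differences were larger in the set whose histone members were lower, and smaller in the set whose histone members were higher. The part of these cell types in the histone values was not tested.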

How the data were processed

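Total RNA libraries were prepared with Trizol, Ribo-Zero and a stranded Illumina TruSeq kit, per the labels' protocols. HISAT2 and GRCm38 (mm10) are named in the submitters' processing notes. The authors deposited 1 list per library of symbols with FPKM values. The program and annotation behind them are named in no source used here. FPKM sums per library ran from 1996700 to 3051430. Depth is not stated and was estimated roughly from the step that 1 fragment adds, at 9.63e+06 to 2.06e+07 fragments, so values carry no counting intervals.

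The test was limma 3.58.1 (R 4.3.3; trend and robust moderation, genotype as the single term) on log2(FPKM + 1), for genes that reached 1 FPKM in 5 or more libraries, with Benjamini-Hochberg adjustment over all 13522. Class sums were described and not tested. On simulated data limma was checked before use. Tables and plots used Python 3.11.15, pandas 2.3.3, numpy 2.4.6 and matplotlib 3.10.9. The library sets were split at 100 FPKM of Rnu12. Hairpins came from GENCODE M21 transcripts and promoters from RefSeq.

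The members and gene lists were chosen with earlier results of these data known. Named were Rnu11; in each class the 3 most abundant members, members past the threshold and the 2 with the smallest p; the testis members; in each list up to 4 members past the threshold, otherwise the 2 with the smallest p; H2afz, H3f3a, H3f3b, H1f0, Slbp, Npat and Rnu7. Hist1h2ae, Hist1h2al, Hist1h2ao, Hist1h2bc, Hist2h2ac, Hist2h3b, Hist2h4, Hist4h4 and Rnu12 were named after their values were seen. Alternatives were a pseudocount of 0.1, no filter, median-ratio and quantile scaling, a term for library set, the first set alone, a replicate block and leaving out each library. Median-ratio scaling of the first set, the interaction and the leave-one-out counts of the first set were added after seeing the data.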

Additional observations from a re-analysis of the deposited data

Results flagged for a closer look

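Of 100 groups of 5 libraries, 8 held a library far from the others of its group, by a criterion that chance meets in about 1 in 20 groups. In 7 of them the library was control 5, the only control of the second set. Among the members, Hist1h2aj was at 3278 FPKM in control 5 and at 4931 to 5450 in the other controls, and summed H2A was at 1.17e+04 FPKM against 14484 to 15504. Control 5 was high instead for Snrpd3 (54.4 against 20.6 to 30.1 FPKM), Rbbp7 (45.5 against 26.2 to 30.8), Ssrp1 (93.9 against 49.8 to 58.7), Ube2c (71.2 against 30.3 to 34.3) and Npat (11.1 against 4.47 to 6.28). Hist1h3i was the case outside control 5, at 2419 FPKM in control 1 and 2096 to 2153 in the other controls.

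The class sums moved opposite ways in the 2 sets of libraries, in every mutant library of each set. As a percentage of the control mean, H1 was at 72.3% in the first set and 109.5% in the other, H2A at 70.0% and 124.7%, H2B at 78.7% and 117.1%, H3 at 68.3% and 120.6%, H4 at 68.8% and 112.2% and all classes together at 71.0% and 116.6%. The difference between the sets was not tested on these sums, and the second set has 1 control.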

How the results depend on the processing

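No member was called in either direction under any alternative planned, and median-ratio scaling of the first set, added later, called 3 lower. Counts over all genes moved more. Higher genes numbered 12 in the test reported, 0 with no filter, 44 with library set as a term, 82 in the first set alone and 0 to 68 when single libraries were left out, with 68 without control 5. Lower genes numbered 9, and 2 with no filter, 18 with median-ratio scaling, 22 with quantile normalization, 30 with library set as a term, 19 in the first set alone and 2 to 11 when single libraries were left out. With library set as a term 1 replacement histone gene passed as higher and 2 decay factors as lower, where 0 had before. Over all genes 0.325% passed as higher and 0.222% as lower with that term. Replicate numbers did not pair the libraries: same-numbered control and mutant libraries had correlated deviations of 0.077, 0.16, 0.24, -0.11 and 0.52, and each correlated best with its own number for replicates 3 and 5 only. A replicate block gave 9 higher and 5 lower genes and 0 members.

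Of 41 named and tested genes, 8 took the opposite sign somewhere, none past the threshold. Hist1h1e took -0.048 with median-ratio scaling, -0.13 with library set as a term and -0.27 in the first set, and Hist1h2ak -0.10, -0.14 and -0.31, with -0.087 under quantile normalization. H3f3b took -0.071, -0.026 and -0.037 under median-ratio scaling, library set as a term and quantile normalization, and H3f3a 0.017 in the first set. The cause was not tested. Leaving out single libraries gave -0.13 to 0.19 for Hist1h1e, -0.24 to 0.010 for Hist1h1t, -0.14 to 0.13 for Hist1h2ak, -0.39 to 0.15 for Hist1h2ba, -0.19 to 0.069 for Hist1h2bh, -0.071 to 0.037 for H3f3a, -0.019 to 0.12 for H3f3b and -0.22 to 0.0058 for Slbp. The Rnu11 level was 24.7% to 43.7% of control throughout. Depth limits members at a few FPKM, such as Hist1h1t and Hist1h2ba.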
